A study of Drosophila melanogaster with 16 samples.

Results

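Redox enzymes and sources of reactive oxygen were followed in the female Drosophila midgut: the peroxiredoxin gene Prx6c, the catalase gene Cat, the superoxide dismutase genes Sod1, Sod2 and Sod3, the glutathione peroxidase homologue PHGPx, the immune-regulated catalase gene Irc, and the NADPH oxidase genes Duox and Nox. They were found through the symbols of a probe table, keeping only probe sets with a single symbol. An exact match to the symbol gave 9 probe sets, and PHGPx was found under its present symbol Gtpx, which made 10 probe sets of 8 genes among 18769 tested. Prx6c, Cat, Sod2, PHGPx, Irc and Duox had 1 probe set each, while Sod3 and Nox had 2 each. The probe sets are 1633471_at (Prx6c), 1639480_at (Cat), 1622984_at (Sod2), 1628257_s_at (PHGPx), 1633391_at (Irc) and 1636572_at (Duox), with 1636961_a_at the brighter and 1622906_at the dimmer of Sod3, and 1630014_at the brighter and 1634345_at the dimmer of Nox. No probe set was assigned to Sod1 by its symbol, so Sod1 was not analysed here.

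Whole midguts of female flies were measured on 16 Affymetrix arrays, 4 in each of 4 groups. RafGOF NotchDN midguts overexpressed RafGOF, an activated version of the MAP kinase pathway kinase Raf, and with it a dominant-negative Notch. RafGOF NotchIC midguts overexpressed the same Raf version and the intracellular domain of Notch, and RafGOF midguts overexpressed that Raf version alone. WT midguts came from wild-type females. All 3 transgenic groups therefore share RafGOF, and the labels used here give no driver, age, induction time or number of animals per array. By the series title the question concerns intestinal stem cells, but the RNA is that of the whole organ.

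Superoxide arises in mitochondria and from NADPH oxidases, and superoxide dismutases turn it into hydrogen peroxide. Catalases, peroxiredoxins and glutathione peroxidases remove the peroxide. In the fly gut, Duox at the epithelial surface releases oxidants against microbes, Irc removes them in the lumen, and the redox state of intestinal stem cells is known to affect their proliferation.

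Array medians lay between 5.48 and 5.70 (log2), and arrays of a group correlated at 0.979 to 0.995 across probe sets. The 4 arrays with the number 2 stood apart in a like way in every group, their deviations correlating at 0.528 to 0.726. Progenitor markers were measured (4 of 4), as were 5 of 6 enterocyte markers. The summed linear signal of the progenitor markers was 2576 to 6038 in RafGOF NotchDN, 1065 to 1580 in RafGOF NotchIC, 1647 to 3851 in RafGOF and 476 to 707 in WT midguts. The largest part of that sum is esg. Between RafGOF NotchDN and RafGOF NotchIC the 4 markers did not run one way. By limma 2 were higher and 1 lower in RafGOF NotchDN, the lower being klu, at 6.63 against 7.72 (log2). With the replicate number as a block, 3 were higher and 1 lower. The summed signal of the enterocyte markers was 53069 to 59850 in RafGOF NotchDN, 50389 to 56618 in RafGOF NotchIC, 39983 to 52505 in RafGOF and 62019 to 63646 in WT midguts. The trypsin genes alphaTry and betaTry carry most of that sum. In WT they averaged 14.66 and 14.72 (log2), near the highest value on the arrays, 14.8, so the sum may not show their full differences. Of the 5 markers betaTry (-0.88, log2) and LManIII (-6.05) fell in RafGOF against WT by limma, while alphaTry (-0.16), nub (0.30) and mex1 (0.002) did not pass. Summed signals were also below those of WT for 4 enteroendocrine markers (1651 to 2022 in RafGOF, 2856 to 3188 in WT), 2 Malpighian tubule markers (476 to 835 in RafGOF, 1108 to 2799 in WT) and 3 tracheal markers (264 to 330 in RafGOF, 362 to 469 in WT). In RafGOF NotchDN the same sums were 1584 to 2448, 443 to 755 and 257 to 328, and in RafGOF NotchIC 773 to 1544, 632 to 1638 and 369 to 470. The tubule and tracheal sums of RafGOF NotchIC overlapped those of WT. Sums of 4 hemocyte, 5 fat body and 4 ovary markers overlapped those of WT in each Raf group. The fat body sum spread widely within WT, from 590 to 4482. Its member Yp1 was at 8.01 (log2) on WT array 3 and at 10.70, 11.10 and 10.20 on WT arrays 1, 2 and 4. Of the tracheal markers, btl did not fall in RafGOF, averaging 6.60 there and 6.44 in WT midguts (log2). The part of these tissues and cell types in the results below was not tested. In such whole-organ RNA, fewer cells of a type and less RNA per cell cannot be told apart. Signals below are RMA values on the log2 scale. A probe set was called where limma's adjusted p was under 0.05, and SEs of differences come from that fit over all 16 arrays.

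**Figure D1:**
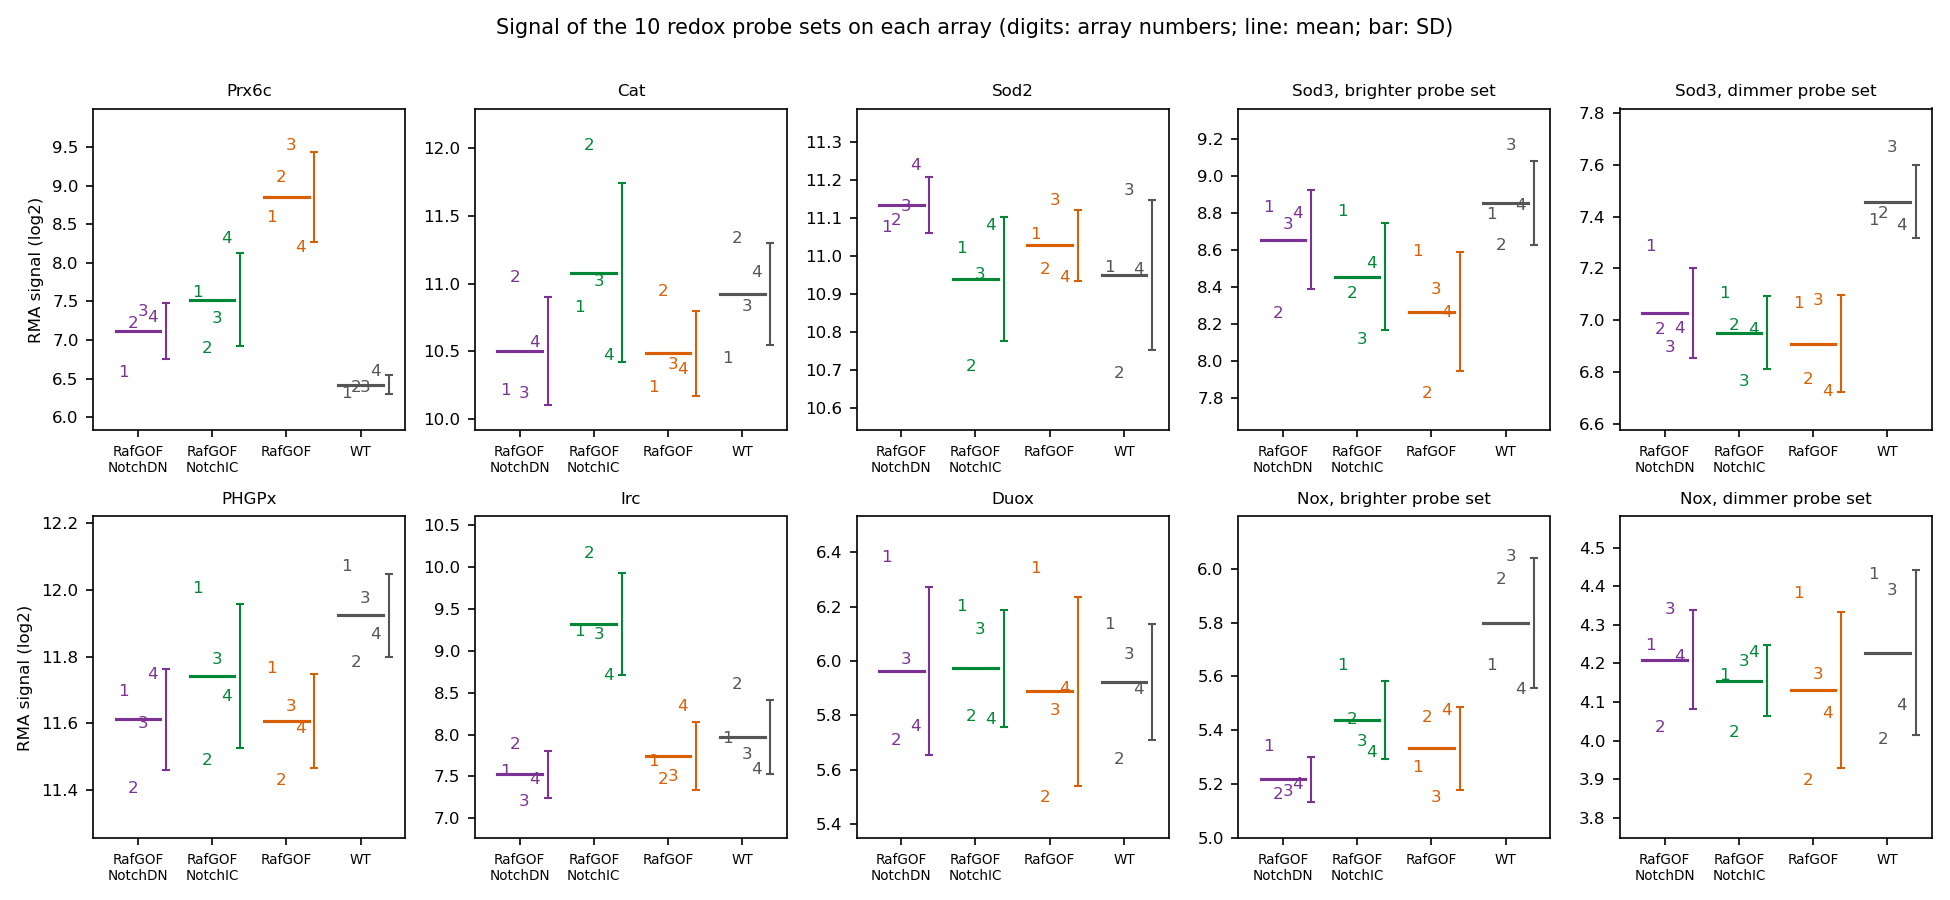
RMA signal (log2, vertical axes with their own ranges) of the 10 probe sets in the 4 groups; digits are the array numbers, horizontal lines the group means and bars the SD (n = 4 arrays). Prx6c stands highest in RafGOF midguts, at 8.19 to 9.52, Irc in RafGOF NotchIC midguts, at 8.70 to 10.16, and the dimmer Sod3 probe set in WT midguts, at 7.37 to 7.67.

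RafGOF was set against WT to ask what active Raf changed. Of the 10 probe sets, 1 was higher and 3 were lower in RafGOF midguts by limma. The peroxiredoxin gene rose, both probe sets of the extracellular superoxide dismutase gene fell, and the brighter probe set of Nox fell. Over all probe sets 19.1% were called, 11.2% higher and 7.85% lower. With the replicate number as a block, 5 of the 10 and 29.4% of all were called. The arrays of the groups did not overlap for 5 of the 10 and for 20.8% of all. The median difference of the 10 probe sets was -0.27 (log2), and that of all probe sets was -0.02.

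Adding a Notch form to RafGOF gave fewer calls. RafGOF NotchDN was lower than RafGOF on 1 of the 10 probe sets, Prx6c, where 1.09% of all probe sets were called by limma, 0.645% higher and 0.442% lower. The block gave 1 of the 10 and 4.22% of all, and the arrays did not overlap for 1 of the 10 and 4.09% of all. RafGOF NotchIC was higher than RafGOF on Irc and lower on Prx6c, where 2.34% of all were called, 1.07% higher and 1.27% lower. There the block gave 3 of the 10 and 6.56% of all, and the arrays did not overlap for 1 of the 10 and 6.46% of all.

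RafGOF NotchDN was lower than RafGOF NotchIC on 1 of the 10, Irc, with 8.72% of all probe sets called by limma, 4.64% higher and 4.09% lower. The block gave 2 of the 10 and 18.6% of all, and the arrays did not overlap for 1 of the 10 and 12.1% of all. Against WT, 2 of the 10 were lower in RafGOF NotchDN, with 20.4% of all called, 11.2% higher and 9.28% lower. The block gave 3 of the 10 and 29.5% of all there, and the arrays did not overlap for 3 of the 10 and 21.2% of all. In RafGOF NotchIC against WT, 2 of the 10 were higher and 1 lower, with 12.7% of all called, 7.50% higher and 5.24% lower. The arrays did not overlap for 3 of the 10 and 17.1% of all, and the block gave 4 of the 10 and 23.2% of all. The comparisons with WT share the WT arrays, and those with RafGOF share the RafGOF arrays.

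**Figure D2:**
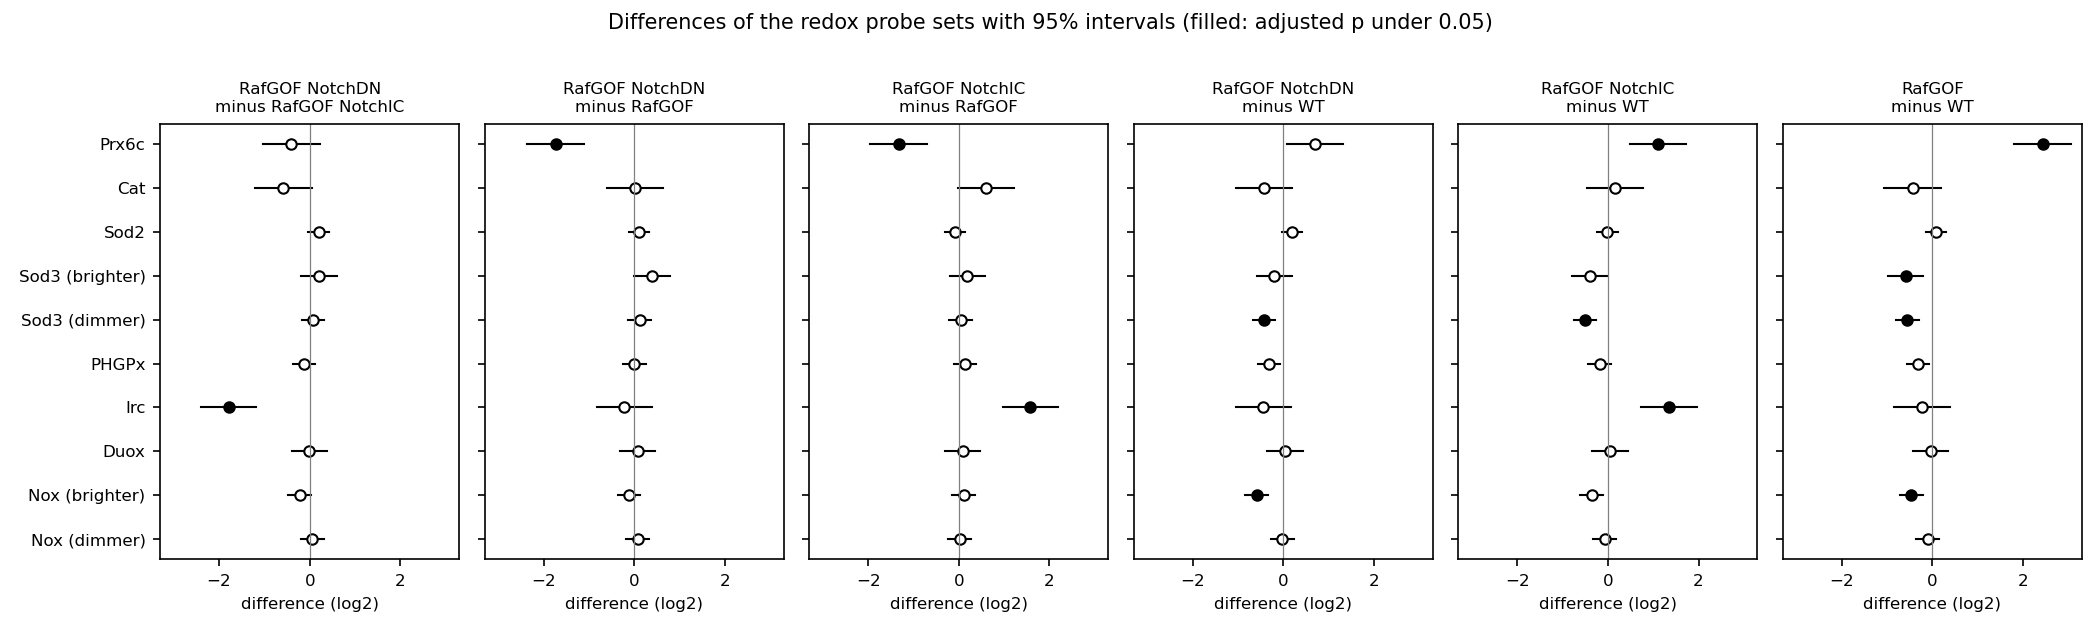
Difference in RMA signal (log2, horizontal axes) of each probe set in the 6 comparisons, with its 95% interval; filled points passed an adjusted p under 0.05. Prx6c lies at 2.43 in RafGOF minus WT and at -1.73 and -1.33 when NotchDN or NotchIC is set against RafGOF, while Irc lies at 1.57 in RafGOF NotchIC minus RafGOF and at -1.79 between the Notch groups.

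Prx6c encodes a peroxiredoxin of the Prx6 class, an enzyme that reduces hydrogen peroxide and organic peroxides. Its signal was 8.58, 9.11, 9.52 and 8.19 on the 4 RafGOF arrays, against 6.31, 6.39, 6.38 and 6.59 on the WT arrays. Every RafGOF array lay above every WT array, and the WT arrays differed little among themselves (6.42 ± 0.121, SD, n = 4). The rise was 2.43 ± 0.293 (log2, SE), a 5.39-fold difference with an adjusted p of 3.2e-05 by limma. With single arrays left out it stayed called, at an adjusted p of at most 0.00020.

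Prx6c was lower where a Notch form was added. It had signals of 6.58, 7.22, 7.37 and 7.30 on the RafGOF NotchDN arrays, all below the lowest RafGOF array. The fall against RafGOF was -1.73 ± 0.293 (log2, SE, n = 4 arrays per group; adjusted p = 0.00764 by limma). It missed the threshold when only the arrays of both groups entered the fit (adjusted p = 0.0675), and without the arrays numbered 1, 2 or 3 (0.0687, 0.0512 and 0.170). On the RafGOF NotchIC arrays Prx6c had signals of 7.62, 6.89, 7.27 and 8.31. Array 4 of that group lay above the lowest RafGOF array, at 8.19, so the groups overlapped. The fall in RafGOF NotchIC against RafGOF was -1.33 ± 0.293 (adjusted p = 0.0266 by limma).

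That fall rested on several arrays. It missed the threshold without RafGOF NotchIC replicate 1, 2 or 3 (adjusted p = 0.0574, 0.0953 and 0.0850), without RafGOF replicate 2 or 3 (0.0935 and 0.0975) and with only the arrays of both groups (0.123). Without the arrays numbered 1, 2 or 3 it missed it as well (0.0714, 0.266 and 0.397). The direction was the same in each of these fits.

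Against WT, Prx6c remained higher in RafGOF NotchIC, by 1.11 ± 0.293 (log2, SE; adjusted p = 0.0205), with no overlap of the arrays. Without RafGOF NotchIC replicate 1 or 4 or WT replicate 1 this rise missed the threshold (adjusted p = 0.0532, 0.0635 and 0.0508), and likewise without the arrays numbered 1, 3 or 4 (0.0993, 0.0916 and 0.0634). In RafGOF NotchDN the difference from WT was 0.70 ± 0.293 and did not pass (adjusted p = 0.119), with a 95% interval of 0.07 to 1.32. It passed with array weights (0.0166) and with only the arrays of both groups (0.0167). The Notch groups were not told apart by Prx6c, at -0.41 for RafGOF NotchDN minus RafGOF NotchIC with a 95% interval of -1.03 to 0.22 (adjusted p = 0.509). The order of the group means was thus RafGOF (8.85), RafGOF NotchIC (7.52), RafGOF NotchDN (7.12) and WT (6.42), and in the fit over all 16 arrays RafGOF and RafGOF NotchIC were the only neighbours in it that passed.

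A further probe set carries the symbols of Prx6b, CG12896 and Prx6c together and so belongs to no single gene. The 3 genes are related peroxiredoxin-like genes that lie near each other on the RefSeq assembly Release 6 plus ISO1 MT, and whether the Prx6c probe set also binds RNA of its relatives was not tested. The shared probe set had signals of 10.87, 11.08, 11.93 and 10.20 on the RafGOF arrays, against 8.504, 7.79, 8.66 and 8.81 on the WT arrays. It rose by 2.58 ± 0.443 (log2, SE, n = 4; adjusted p = 0.000593 by limma), close to the size for Prx6c alone.

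The difference between the shared probe set and Prx6c was not tested. In RafGOF NotchIC it had signals of 11.20, 9.40, 11.03 and 10.46, and it was at -0.50 ± 0.443 against RafGOF, which did not pass by limma, with a 95% interval of -1.44 to 0.45. In RafGOF NotchDN it had signals of 8.43, 8.55, 9.61 and 9.997, all below the lowest RafGOF array. Its difference from RafGOF there was -1.87 ± 0.443, which did not pass (adjusted p = 0.0575) but did with the replicate number as a block (0.0110) and without RafGOF NotchDN replicate 4 (0.0413) or RafGOF replicate 4 (0.0424). RafGOF NotchDN minus RafGOF NotchIC was -1.38 ± 0.443 (adjusted p = 0.0704), and it passed with the block (0.0165) and without RafGOF NotchDN replicate 4 (0.0383) or RafGOF NotchIC replicate 2 (0.0201). Against WT it was 2.08 ± 0.443 in RafGOF NotchIC (adjusted p = 0.00573, 0.0613 without the arrays numbered 3) and 0.70 ± 0.443 in RafGOF NotchDN (0.349).

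**Figure D3:**
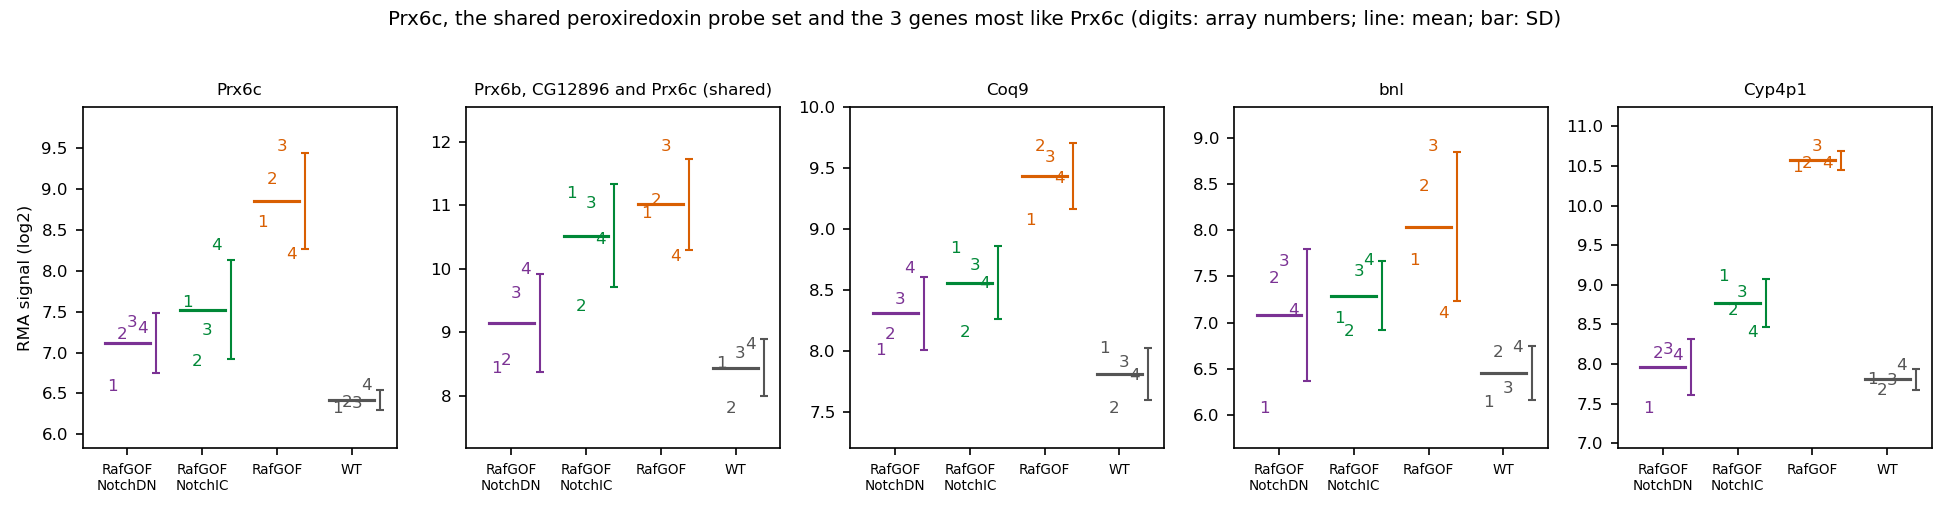
RMA signal (log2) of Prx6c, of the probe set shared by Prx6b, CG12896 and Prx6c, and of the 3 genes whose signal correlated most with Prx6c over the 16 arrays; digits are array numbers, lines group means and bars the SD (n = 4). All 5 have their highest group mean in RafGOF midguts, and the shared probe set stays at 9.40 to 11.20 in RafGOF NotchIC midguts.

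Among 4388 named genes with a mean signal of at least 6 (log2), the signals most like that of Prx6c over the 16 arrays were those of Coq9 (Pearson r = 0.921), bnl (0.898) and Cyp4p1 (0.889). The arrays share their groups and numbers, so these values describe the likeness and test nothing. Coq9 acts in ubiquinone synthesis, bnl is a fibroblast growth factor that guides tracheal branches, and Cyp4p1 is a cytochrome P450 gene. Since Coq9 was picked for its likeness to Prx6c over these same arrays, its differences describe that likeness and are no separate test. Coq9 rose by 1.63 ± 0.180 in RafGOF against WT (log2, SE; adjusted p = 1.5e-05 by limma). It was lower than in RafGOF both in RafGOF NotchDN, by -1.13 ± 0.180 (adjusted p = 0.00550), and in RafGOF NotchIC, by -0.88 ± 0.180 (0.0177). Array 4 of RafGOF was the lowest of its group for Prx6c (8.19) and for bnl (7.09). For Coq9 (9.07) and Cyp4p1 (10.48) the lowest RafGOF array was array 1.

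Sod3 encodes the extracellular copper-zinc superoxide dismutase. Its dimmer probe set had signals of 7.06, 6.77, 7.08 and 6.72 on the RafGOF arrays, against 7.39, 7.41, 7.67 and 7.37 on the WT arrays. The groups did not overlap, and the fall was -0.55 ± 0.117 (log2, SE, n = 4; adjusted p = 0.00307 by limma), a 1.46-fold reduction that stayed called with every single array left out. Its brighter probe set had signals of 8.59, 7.83, 8.39 and 8.26 on the RafGOF arrays, against 8.79, 8.62, 9.16 and 8.84 on the WT arrays. It fell by -0.59 ± 0.184 (adjusted p = 0.0344). That call was lost without any of RafGOF replicates 2, 3 and 4 or WT replicates 1, 3 and 4, at adjusted p of 0.120, 0.0518, 0.0665, 0.0565, 0.112 and 0.0683, and without the arrays numbered 3 or 4 (0.163 and 0.161).

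The Notch forms did not part the Sod3 levels by these tests. The dimmer Sod3 probe set had signals of 7.28, 6.96, 6.89 and 6.97 in RafGOF NotchDN and 7.10, 6.98, 6.76 and 6.96 in RafGOF NotchIC midguts. Both groups lay below all WT arrays, by -0.43 ± 0.117 in RafGOF NotchDN (adjusted p = 0.0142 by limma) and by -0.51 ± 0.117 in RafGOF NotchIC (0.00934). The fall in RafGOF NotchDN missed the threshold without RafGOF NotchDN replicate 3 (0.0535), without WT replicate 3 (0.0556) and without the arrays numbered 2, 3 or 4 (0.0610, 0.152 and 0.0717), and that in RafGOF NotchIC without the arrays numbered 3 (0.147). On the brighter probe set the differences from WT were -0.20 ± 0.184 in RafGOF NotchDN (adjusted p = 0.576) and -0.40 ± 0.184 in RafGOF NotchIC (0.187), and neither passed. The genes most like the brighter Sod3 probe set over the 16 arrays were PIG-X (r = 0.892), Uqcc1 (0.880) and GILT3 (0.856).

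Sod2, the mitochondrial manganese superoxide dismutase gene, passed in no comparison. It averaged 11.13 ± 0.0731 in RafGOF NotchDN, 10.94 ± 0.163 in RafGOF NotchIC, 11.03 ± 0.0932 in RafGOF and 10.95 ± 0.198 in WT midguts (SD, n = 4 each). The largest of its 6 differences was 0.20 ± 0.106 (log2, SE) for RafGOF NotchDN minus RafGOF NotchIC, with a 95% interval of -0.03 to 0.42 (adjusted p = 0.339 by limma). For RafGOF minus WT the interval was -0.15 to 0.30.

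PHGPx encodes a glutathione peroxidase homologue that in Drosophila draws on thioredoxin. Its probe set is of a kind whose probes can match several transcripts. It had signals of 11.76, 11.43, 11.65 and 11.59 on the RafGOF arrays, against 12.07, 11.78, 11.97 and 11.87 on the WT arrays. All RafGOF arrays lay below all WT arrays, and each RafGOF array lay 0.28 to 0.36 below the WT array of the same number. The difference of -0.32 ± 0.116 (log2, SE) did not pass by limma (adjusted p = 0.0720) but did with the replicate number as a block (0.00445) and without RafGOF replicate 1 (0.0479). Non-overlapping arrays occurred for 20.8% of all probe sets in RafGOF minus WT.

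In RafGOF NotchDN, PHGPx had signals of 11.70, 11.41, 11.60 and 11.75, again below all WT arrays. The difference from WT was -0.31 ± 0.116 (adjusted p = 0.0743 by limma, 0.00460 with the block). In RafGOF NotchIC it had signals of 12.01, 11.49, 11.79 and 11.68, which overlapped those of WT, at -0.18 ± 0.116 (adjusted p = 0.375). No comparison among the 3 Raf groups passed for PHGPx, and the differences there ran from -0.13 to 0.14.

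Cat encodes the main intracellular catalase, a peroxisomal enzyme. It had signals of 10.21, 11.04, 10.19 and 10.57 in RafGOF NotchDN, 10.82, 12.02, 11.02 and 10.47 in RafGOF NotchIC, 10.23, 10.94, 10.40 and 10.37 in RafGOF and 10.45, 11.33, 10.83 and 11.08 in WT midguts. In every group array 2 was the highest, and the groups overlapped in every comparison. Cat passed in none of the 6 comparisons by limma. RafGOF NotchIC minus RafGOF was 0.60 ± 0.292 (log2, SE; adjusted p = 0.460), and the same-numbered differences were 0.59, 1.08, 0.62 and 0.10. With the replicate number as a block it passed (adjusted p = 0.0416). RafGOF NotchDN minus RafGOF NotchIC was -0.58 ± 0.292 (adjusted p = 0.293) and passed with the block as well (0.0215), with 3 of 4 same-numbered differences below 0.

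RafGOF minus WT was -0.44 ± 0.292 for Cat (log2, SE; adjusted p = 0.372, 0.0563 with the block), with all 4 same-numbered differences below 0. RafGOF NotchDN minus WT was -0.42 ± 0.292 (adjusted p = 0.412, 0.0670 with the block), again with all 4 below 0. These values did not pass, and the 95% interval for RafGOF minus WT was -1.06 to 0.18.

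Irc encodes a secreted catalase that removes hydrogen peroxide in the gut lumen. Its signal was 9.23, 10.16, 9.19 and 8.70 in RafGOF NotchIC midguts, above every array of RafGOF, which had 7.68, 7.46, 7.50 and 8.34. The rise was 1.57 ± 0.286 (log2, SE, n = 4; adjusted p = 0.00821 by limma), a 2.98-fold difference. The WT arrays had 7.95, 8.59, 7.76 and 7.58 and also lay below all RafGOF NotchIC arrays. That rise over WT was 1.35 ± 0.286 (adjusted p = 0.00560), a 2.54-fold difference.

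Irc had signals of 7.55, 7.88, 7.21 and 7.47 in RafGOF NotchDN midguts, all below the lowest RafGOF NotchIC array. RafGOF NotchDN minus RafGOF NotchIC was -1.79 ± 0.286 (log2, SE; adjusted p = 0.000857 by limma), the largest difference among the 10 probe sets in that comparison. The other 3 groups were not told apart, with differences of -0.23 ± 0.286 for RafGOF minus WT (adjusted p = 0.683), -0.44 ± 0.286 for RafGOF NotchDN minus WT (0.365) and -0.22 ± 0.286 for RafGOF NotchDN minus RafGOF (0.978). Without the highest array, RafGOF NotchIC replicate 2, Irc was still higher in RafGOF NotchIC than in RafGOF by 1.30 (adjusted p = 0.0227) and than in WT by 1.07 (0.0106). The calls were lost without the arrays numbered 3 (0.164 and 0.0824) and, against RafGOF, without those numbered 1 (0.0682).

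The genes most like Irc over the 16 arrays were vari (r = 0.946), Rh50 (0.871) and byn (0.844). Here vari encodes a scaffold protein of septate junctions, Rh50 an ammonium transporter of the Rhesus family and byn a transcription factor known for the hindgut, the organ behind the midgut. The byn signal was 7.46, 8.49, 7.02 and 6.48 in RafGOF NotchIC midguts, against 6.33, 6.91, 6.42 and 6.41 in RafGOF midguts, which is the order of the RafGOF NotchIC arrays for Irc too. Its difference was 0.84 ± 0.336 (log2, SE), which did not pass by limma (adjusted p = 0.302) but did with the block (0.0198). As byn was picked for its likeness to Irc over these same arrays, that difference is no separate test. A list of 6 hindgut genes (byn, otp, drm, bowl, Dr and fkh), chosen after these values were seen, had a summed linear signal of 1228 to 1869 in RafGOF NotchIC, 1065 to 1319 in RafGOF NotchDN, 1034 to 1219 in RafGOF and 971 to 1285 in WT midguts. The list holds byn, which prompted it, and drm and fkh carry most of the sum. Its members did not run one way: bowl averaged 7.74 in RafGOF NotchIC and 8.27 in WT midguts, otp 4.88 and 4.93 in the same groups, and fkh was highest in RafGOF NotchDN (9.12, against 8.83 in RafGOF NotchIC). The part of hindgut tissue in the Irc result was not tested.

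**Figure D4:**
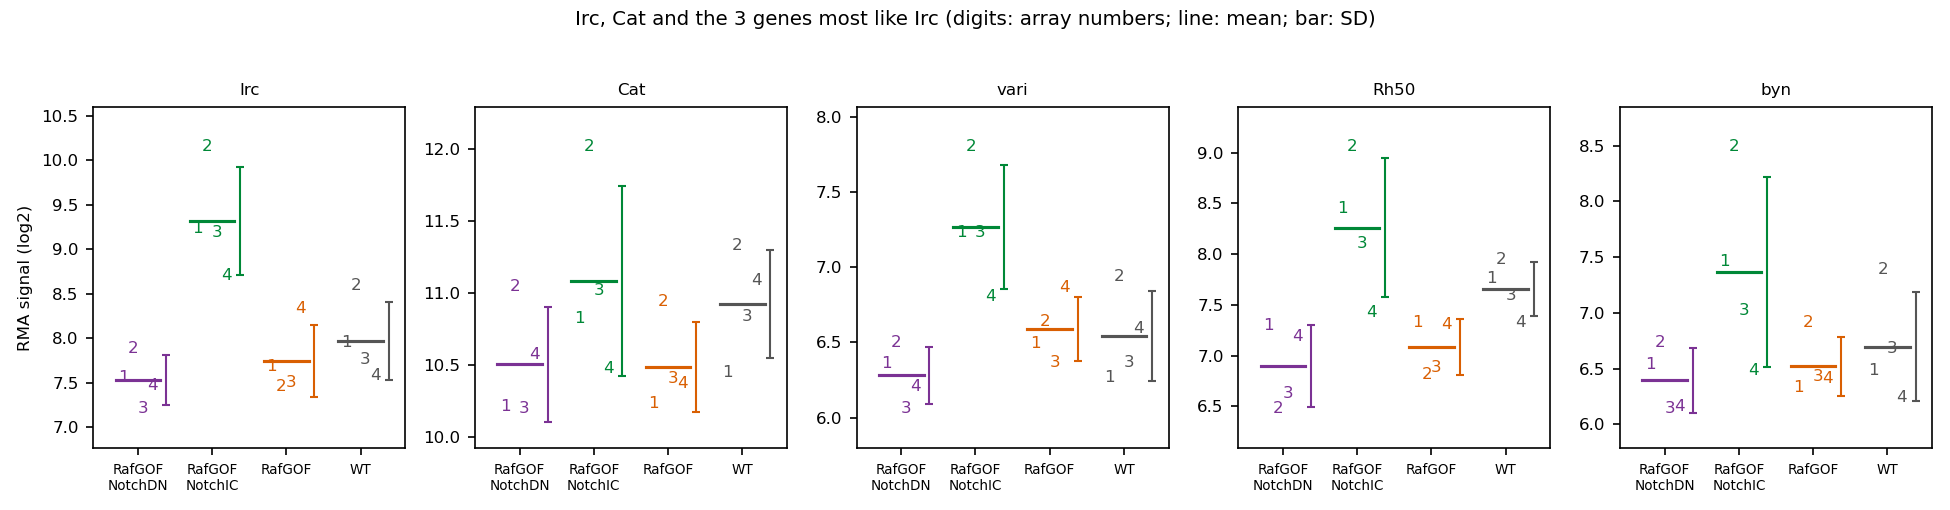
RMA signal (log2) of Irc, Cat and the 3 genes most like Irc over the 16 arrays; digits are array numbers, lines group means and bars the SD (n = 4). Array 2 of RafGOF NotchIC is the highest array in each of the 5 panels, at 10.16 for Irc, 12.02 for Cat and 8.49 for byn.

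Duox, the dual oxidase of the gut surface, passed in no comparison. Its signal was 6.38, 5.71, 6.01 and 5.76 in RafGOF NotchDN, 6.20, 5.80, 6.11 and 5.78 in RafGOF NotchIC, 6.34, 5.50, 5.82 and 5.90 in RafGOF and 6.14, 5.64, 6.03 and 5.89 in WT midguts. All groups overlapped, array 1 was the highest in each, and the 6 differences ran from -0.03 to 0.08 (log2). The adjusted p of these differences was 0.905 or above by limma, and the 95% interval for RafGOF minus WT was -0.42 to 0.36. Its mean over all arrays, 5.94, stood above that of 54.5% of all probe sets.

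Nox encodes a calcium-regulated NADPH oxidase that makes superoxide. Its brighter probe set had signals of 5.26, 5.45, 5.15 and 5.47 on the RafGOF arrays, against 5.64, 5.96, 6.04 and 5.55 on the WT arrays. The groups did not overlap, and the fall was -0.47 ± 0.119 (log2, SE, n = 4; adjusted p = 0.0104 by limma), a 1.38-fold reduction. It was lost without the arrays numbered 3 (0.181). In RafGOF NotchDN midguts Nox had signals of 5.34, 5.16, 5.17 and 5.20, below all WT arrays by -0.58 ± 0.119 on average (adjusted p = 0.00191). In RafGOF NotchIC midguts it had signals of 5.64, 5.44, 5.36 and 5.32, which overlapped those of WT, at -0.36 ± 0.119 (adjusted p = 0.0592). That difference passed without RafGOF NotchIC replicate 1 (0.0436), without WT replicate 4 (0.0321) and without the arrays numbered 1 (0.0453).

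The dimmer Nox probe set did not follow. It was at -0.10 ± 0.119 in RafGOF minus WT (log2, SE; adjusted p = 0.672 by limma), and its signals of 3.90 to 4.43 over all arrays were low, its mean standing above that of 20.0% of all probe sets. The brighter Nox probe set itself stood above 47.3% of them. No comparison among the 3 Raf groups passed for Nox on either probe set.

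The genes most like the brighter Nox probe set over the 16 arrays were Obsc (r = 0.949), tn (0.893) and dop (0.882), of which Obsc and tn are known for the sarcomere of muscle. Obsc was picked for its likeness to Nox over these same arrays, so its differences describe that likeness and are no separate test. Obsc fell by -0.93 ± 0.176 in RafGOF against WT (log2, SE; adjusted p = 0.00130 by limma) and by -1.07 ± 0.176 in RafGOF NotchDN against WT (0.000323), and by -0.67 ± 0.176 in RafGOF NotchIC against WT (0.0198). The summed linear signal of the 4 measured visceral muscle markers, of 6 listed, was 1839 to 2362 in RafGOF NotchDN, 2265 to 2810 in RafGOF NotchIC, 1990 to 2642 in RafGOF and 3651 to 4256 in WT midguts. Of these markers 4 fell in RafGOF NotchDN, 3 in RafGOF NotchIC and 3 in RafGOF against WT by limma. With the block 4 fell in RafGOF and 4 in RafGOF NotchIC. Nox itself did not pass in RafGOF NotchIC against WT. The part of muscle in the Nox result was not tested.

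Other genes of redox pathways were read from 7 lists with 43 entries, of which 32 had a probe set under a single symbol. In RafGOF against WT 5 of the 32 rose, 9 fell and 18 did not pass, where 19.1% of all probe sets were called, with a median difference of -0.045 (log2) beside -0.02 over all probe sets. In RafGOF NotchDN against WT 4 rose and 10 fell (20.4% of all called), and in RafGOF NotchIC against WT 3 rose and 6 fell (12.7% of all called). Between the Raf groups 2 of 32 passed for RafGOF NotchDN minus RafGOF (1.09% of all), 2 for RafGOF NotchIC minus RafGOF (2.34%) and 4 for RafGOF NotchDN minus RafGOF NotchIC (8.72%). With the block the counts higher and lower were 6 and 12 in RafGOF against WT (29.4% of all called) and 5 and 11 in RafGOF NotchDN against WT (29.5%). They were 7 and 7 in RafGOF NotchIC against WT (23.2%), where the numbers do not pair the arrays. Against RafGOF they were 1 and 1 in RafGOF NotchDN (4.22%) and 2 and 1 in RafGOF NotchIC (6.56%), and for RafGOF NotchDN against RafGOF NotchIC 3 and 4 (18.6%).

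Of the 4 measured glutathione genes, 3 fell and 1 rose in RafGOF against WT. Gclc and Gclm, the catalytic and modifier subunits of the enzyme that starts glutathione synthesis, fell by -1.11 ± 0.186 and by -0.95 ± 0.185 (log2, SE, n = 4; adjusted p = 0.000500 and 0.00159 by limma). The glutaredoxin gene Grx1 fell by -0.68 ± 0.138 (adjusted p = 0.00233). GstS1, the sigma-class glutathione transferase, rose by 0.66 ± 0.129 (adjusted p = 0.00163). GstS1 differed most between the Notch groups, averaging 11.48 in RafGOF NotchDN and 10.04 in RafGOF NotchIC midguts, at 1.44 ± 0.129 (adjusted p = 4.41e-06). Gclc, Gclm and Grx1 also fell in RafGOF NotchDN and in RafGOF NotchIC against WT, though in RafGOF NotchIC Gclc lost its call without any single array of either group (adjusted p = 0.0551 to 0.142) and Grx1 without 6 of the 8 (0.0545 to 0.0861).

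Both measured genes of NADPH supply fell in RafGOF against WT. Idh, an isocitrate dehydrogenase that makes NADPH, averaged 11.14 in RafGOF and 12.85 in WT midguts, a fall of -1.72 ± 0.274 (log2, SE; adjusted p = 0.000314 by limma). Men, a malic enzyme, fell by -1.18 ± 0.292 (adjusted p = 0.00880). Men was lower in RafGOF NotchDN than in RafGOF NotchIC by -1.03 ± 0.292 (0.0381), a call lost without 7 of the 8 arrays in turn (0.0551 to 0.124). With the block Idh passed as well for RafGOF NotchIC minus RafGOF, at 0.72 (0.0158, against 0.268 without the block), and for RafGOF NotchDN minus RafGOF NotchIC, at -0.70 (0.00666, against 0.153). Of the 6 repair and cofactor genes 2 fell and 1 rose in RafGOF against WT, namely MsrA, a methionine sulfoxide reductase gene (-1.82 ± 0.319, adjusted p = 0.000697), Sesn, a sestrin gene (-0.45 ± 0.145, 0.0409), and dj-1beta, a DJ-1 homologue (0.58 ± 0.114, 0.00186). SelR, a further methionine sulfoxide reductase gene, was at -0.28 ± 0.0958 with no overlap of the arrays and passed with the block alone (0.0244, against 0.0542). The fall of Sesn was lost without 6 of the 8 arrays in turn (0.0581 to 0.127). MsrA also fell against WT in RafGOF NotchDN, by -1.87 ± 0.319 (0.000417), and in RafGOF NotchIC, by -1.75 ± 0.319 (0.00201).

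**Figure D5:**
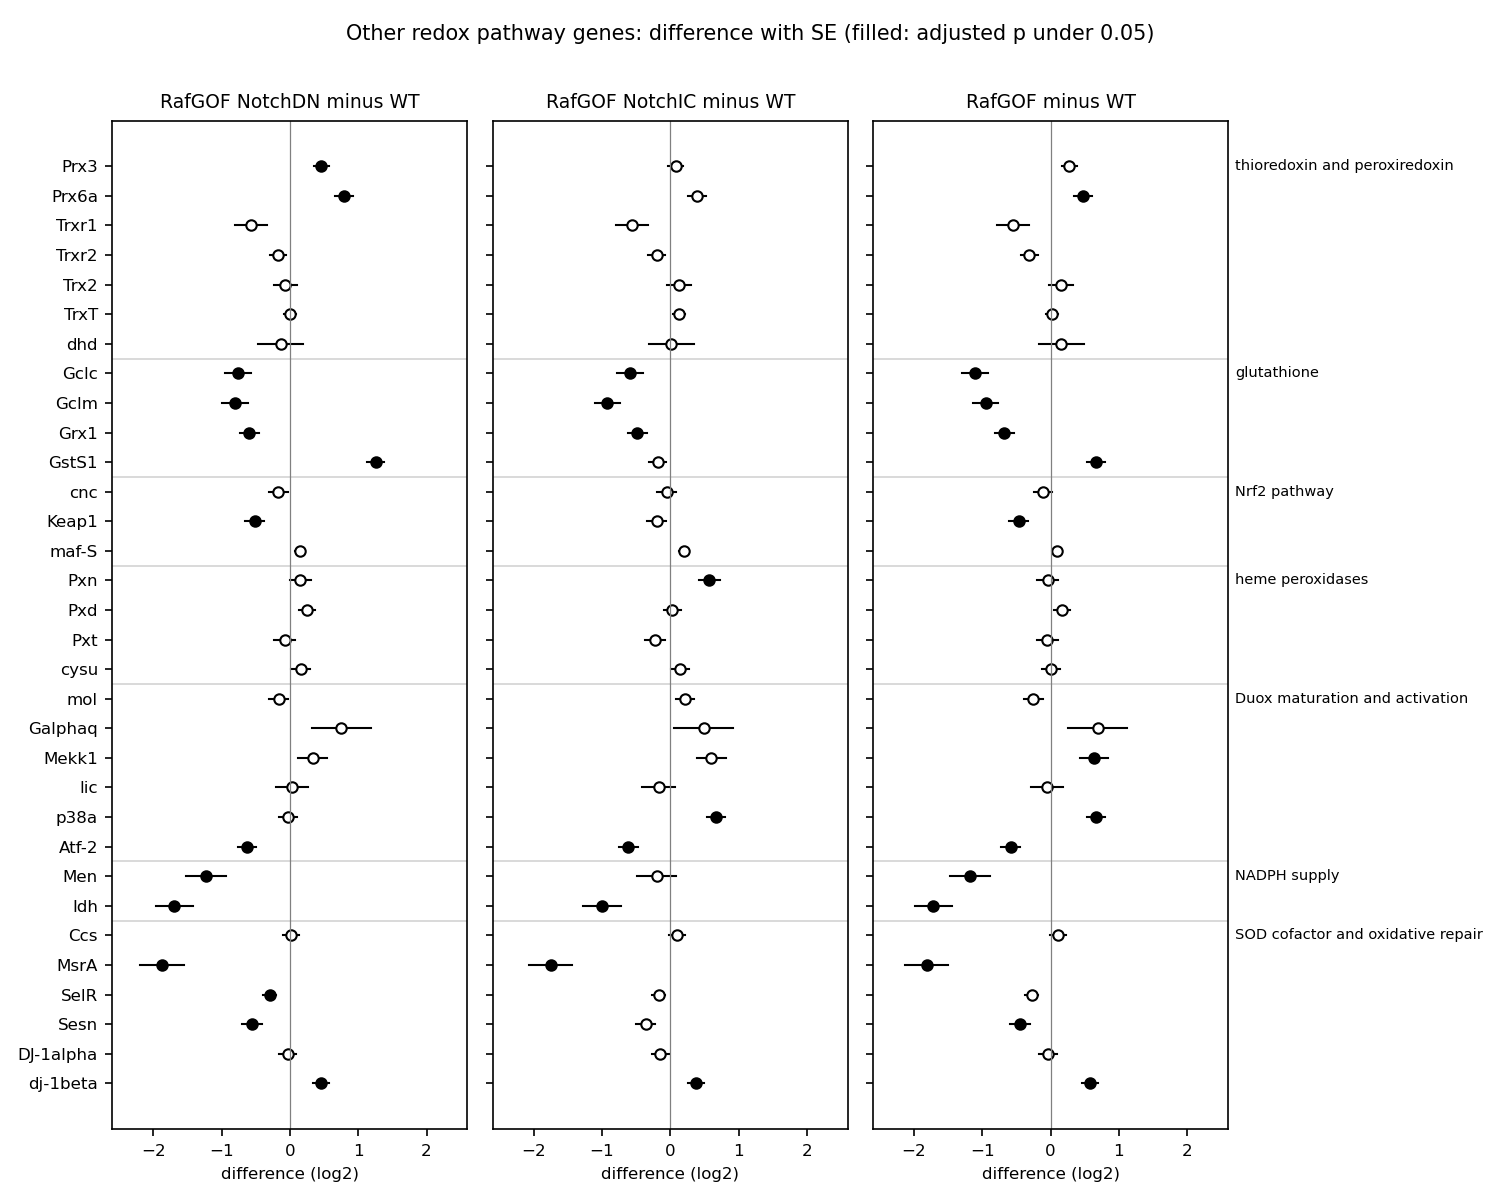
Difference in RMA signal (log2, horizontal axes) with its SE for the 32 measured genes of the 7 other redox lists in the 3 comparisons with WT; filled points passed an adjusted p under 0.05 and grey lines part the lists. Gclc, Gclm, Grx1 and MsrA lie below 0 with filled points in all 3 panels, and MsrA lies at -1.87 in RafGOF NotchDN, -1.75 in RafGOF NotchIC and -1.82 in RafGOF.

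Among 7 thioredoxin and peroxiredoxin genes measured, Prx6a, a further member of the Prx6 class, rose in RafGOF against WT by 0.47 ± 0.137 (log2, SE; adjusted p = 0.0227 by limma), a call lost without RafGOF replicate 3 or WT replicate 1, 2 or 4 (0.0528 to 0.0746). With the block Trxr1 and Trxr2, thioredoxin reductase genes, fell as well, by -0.55 (0.00105, against 0.128 without the block) and by -0.31 (0.0425, against 0.0939). Trxr1 fell with the block in RafGOF NotchDN against WT too, by -0.58 (0.000653, against 0.109). In RafGOF NotchDN against WT both Prx6a, by 0.79 ± 0.137 (0.000486), and the mitochondrial peroxiredoxin gene Prx3, by 0.46 ± 0.105 (0.00428), rose. For RafGOF NotchDN minus RafGOF NotchIC Prx6a was at 0.40 and passed with the block alone (0.0220, against 0.0892). Of the 3 Nrf2 pathway genes, Keap1, whose protein holds the Nrf2 homologue Cnc in check, fell in RafGOF against WT by -0.47 ± 0.140 (0.0275), a call lost without 5 of the 8 arrays in turn (0.0551 to 0.0749). Of the 6 measured genes for Duox maturation and activation, Mekk1 and p38a, kinases of the p38 pathway, rose in RafGOF against WT, by 0.64 ± 0.210 (0.0449) and 0.67 ± 0.133 (0.00185). The rise of Mekk1 was lost without 7 of the 8 arrays in turn (0.0723 to 0.148). Galphaq, a G protein subunit gene upstream of Duox activity, was at 0.69 ± 0.432 in RafGOF minus WT and 0.75 ± 0.432 in RafGOF NotchDN minus WT, which did not pass (0.332 and 0.292). Both passed with the block (0.00051 and 0.000226), and Galphaq was higher in RafGOF than in WT in 4 of 4 same-numbered pairs. Atf-2, a transcription factor downstream of p38, fell by -0.59 ± 0.139 (0.00631), with dim means of 4.80 in RafGOF and 5.38 in WT midguts. In RafGOF NotchDN p38a was lower than in RafGOF by -0.69 ± 0.133 (0.0181, lost without RafGOF NotchDN replicate 2 or RafGOF replicate 3 or 4 at 0.0577 to 0.0668), and lower than in RafGOF NotchIC by -0.70 ± 0.133 (0.00327). The heme peroxidase list had 4 genes measured. Its member Pxn, the peroxidasin gene of the extracellular matrix, rose in RafGOF NotchIC against WT by 0.57 ± 0.154 (0.0218) and against RafGOF by 0.61 ± 0.154 (0.0486). The rise of Pxn over WT was lost without 4 of the 8 arrays in turn (0.0511 to 0.0685) and that over RafGOF without any of the 8 (0.0513 to 0.167). RafGOF NotchDN minus RafGOF NotchIC was -0.43 for Pxn and passed with the block alone (0.0173, against 0.113).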

How the data were processed

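Total RNA of dissected midguts was prepared by Trisol extraction and labelled for 3' expression arrays, per the labels. The authors deposited log2 values computed with RMA, per the submitters' processing notes, and the RMA version and chip definition are not stated there. Of 18952 probe sets, 183 controls were left out, and nothing was rescaled. Of the 18769 tested, 13647 had 1 symbol, 402 several and 4720 none in the platform annotation. PHGPx (Gtpx) and older list symbols were matched through RefSeq.

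A limma 3.58.1 model (R 4.3.3) with 1 mean per group was fitted to all 16 arrays, leaving 12 residual degrees of freedom, with p-values moderated by eBayes and adjusted after Benjamini-Hochberg over all probe sets in each of 6 comparisons. In a test on simulated data for RafGOF minus WT it recovered 91% of 100 probe sets changed by 1 (log2). That test changed 200 probe sets, none by less than 1, with normal noise independent between arrays. It therefore does not show how often the smaller differences given here would be found. Whether arrays of a group came from separate animals or pools is not said, so p-values measure no more than the spread among these arrays, whose number limits the precision.

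Same-numbered arrays deviated together in 5 comparisons (r = 0.104 to 0.785, minimum 0.1). There blocked values stand where they change a call of a member or other redox gene. For RafGOF NotchIC and WT r was 0.342, 0.574, 0.0489 and 0.174 for the arrays numbered 1, 2, 3 and 4, so only those numbered 3 were under the minimum. What the numbers stand for is not said. A gene in a list is read from its probe set with the highest mean. Members, lists and tests were chosen with earlier results of these data known. All probe sets of every member are named. From each other list up to 4 called genes per comparison could be named, and the 3 genes most correlated with each member called. List genes called with the block alone were named after their values were seen. The alternatives were the block, array weights, another moderation, median centring, a filter on low means, a fit of the compared groups alone, and leaving out arrays.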

Additional observations from a re-analysis of the deposited data

Results flagged for a closer look

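In 2 of 40 groups of 4 arrays a single array stood apart by Dixon's criterion (a gap to the nearest array above the 95% critical value for its share of the range), and chance gives about 5% of groups. On the brighter Sod3 probe set, RafGOF NotchDN replicate 2 was at 8.26 (log2), and the nearest array of its group was at 8.74, a gap of 0.843 of the range. On the dimmer Sod3 probe set, WT replicate 3 was at 7.67, and the nearest array was at 7.41, a gap of 0.851 of the range.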

How the results depend on the processing

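Of the 60 differences of the 10 probe sets, 45 kept their side of the threshold under all alternatives run and 15 did not under at least 1; none that passed changed direction. The 1 call in RafGOF NotchDN minus RafGOF NotchIC became 2 with the replicate block. With only the 2 groups compared, the count was 0 for RafGOF NotchDN minus RafGOF and 1 for RafGOF NotchIC minus RafGOF. With array weights it was 4 for RafGOF NotchDN minus WT. When arrays were left out, the count ran from 2 to 5 for RafGOF minus WT, from 1 to 2 for RafGOF NotchDN minus WT, from 0 (without the arrays numbered 3) to 4 for RafGOF NotchIC minus WT, from 0 to 1 for RafGOF NotchDN minus RafGOF and from 0 to 2 for RafGOF NotchIC minus RafGOF, and stayed at 1 for RafGOF NotchDN minus RafGOF NotchIC. Fewer arrays entered those fits. Beyond those given above, the block changed no call of the 10 probe sets and the shared one except Nox in RafGOF NotchIC minus WT. There Nox passed with the block (adjusted p = 0.0450), while the deviations of the arrays numbered 3 correlated at 0.0489. PHGPx passed with array weights in RafGOF minus WT (0.0142) and RafGOF NotchDN minus WT (0.00932). In RafGOF NotchDN minus WT it also passed with median centring (0.0449). Of the 45 calls of other redox genes, 28 were lost under at least 1 alternative. The dimmer Nox probe set fell under the filter on means below 5 (log2) and has no value there.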
